A study of Mus musculus with 4 samples.

Results

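The genes described here are 10 members of the interleukin-1 system: the cytokine genes Il1a, Il1b and Il18, the antagonists Il1rn and Il18bp, the receptor chains Il1r2 and Il1rap, and the inflammasome genes Nlrp3, Casp1 and Casp4. Every probe set that the array's annotation assigns to one of these genes alone was taken, which gave 16 of 45037 probe sets and 10 of the 18193 genes that have a probe set of their own. They were measured in bone marrow-derived mouse macrophages, cultured for 7 days in medium with 20% L-cell conditioned medium and primed with interferon-gamma at 100 U/ml, for 16 h in the LPS group and overnight in the other. After a wash, 2 samples received lipopolysaccharide (LPS) at 10 ng/ml, called classical activation in the series, and 2 received LPS at 10 ng/ml plus immune complexes for 2 h, called type II activation, and the LPS samples were also taken at 2 h. Strain, sex and age of the mice, and the antigen and antibody of the complexes, are not given in the sources used here, and all 4 samples were primed with interferon-gamma, so no unprimed or unstimulated level is measured. Whether the replicates are separate cultures or mice is not stated in the labels, so a p-value here reflects a spread among these 4 samples that may be only technical.

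Interleukin-1 alpha and interleukin-1 beta act through the same receptor, which needs the accessory chain encoded by Il1rap to signal. Il1rn encodes the antagonist that occupies this receptor without signalling, Il1r2 encodes a decoy receptor that binds the cytokine but carries no signalling domain, and Il18bp encodes a secreted protein that holds interleukin-18. The precursors of interleukin-1 beta and interleukin-18 are cut by caspase-1, which is activated on inflammasomes such as the one built on the sensor NLRP3, while the Casp4 product responds to LPS in the cytosol. In macrophages LPS alone induces Il1a, Il1b and Nlrp3 strongly, and these transcripts say nothing of cutting or secretion, which the arrays do not measure.

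The promoters of the genes with the clearest pattern below, Il1a, Il1b and Il1rn, are shown so that the pair that read lower can be set beside the antagonist that read higher. The 250 bases before each annotated start are from RefSeq (GRCm38.p6), written 5′ to 3′ on the gene's strand, with matches to the TATA box (TATAAA) and AP-1 (TGANTCA) motifs in capitals. Il1a (chr2:129309973-129310222) and Il1b (chr2:129371140-129371389) lie on the minus strand and Il1rn (chr2:24336610-24336859 and chr2:24345121-24345370, the first and the third of its annotated starts) on the plus strand.
Il1a: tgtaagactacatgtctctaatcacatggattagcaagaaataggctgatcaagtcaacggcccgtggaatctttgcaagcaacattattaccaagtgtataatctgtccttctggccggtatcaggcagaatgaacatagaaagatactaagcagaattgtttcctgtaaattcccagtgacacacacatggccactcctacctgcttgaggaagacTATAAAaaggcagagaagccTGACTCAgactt
Il1b: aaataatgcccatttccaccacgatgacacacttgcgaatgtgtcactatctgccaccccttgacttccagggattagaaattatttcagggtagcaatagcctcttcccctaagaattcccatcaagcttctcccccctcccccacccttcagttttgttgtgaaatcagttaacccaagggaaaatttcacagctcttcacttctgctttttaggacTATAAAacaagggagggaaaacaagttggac
Il1rn, first start: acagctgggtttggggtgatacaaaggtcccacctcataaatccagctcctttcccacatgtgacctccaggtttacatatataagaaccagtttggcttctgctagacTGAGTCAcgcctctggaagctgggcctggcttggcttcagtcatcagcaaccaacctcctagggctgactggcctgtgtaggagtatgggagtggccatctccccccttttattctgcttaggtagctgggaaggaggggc
Il1rn, the third start: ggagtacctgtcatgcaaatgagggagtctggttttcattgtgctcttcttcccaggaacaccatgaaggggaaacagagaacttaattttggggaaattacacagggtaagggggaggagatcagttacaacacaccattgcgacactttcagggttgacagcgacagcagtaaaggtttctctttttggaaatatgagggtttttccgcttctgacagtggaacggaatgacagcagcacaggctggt

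Il1a and Il1b are neighbours on chromosome 2 with 0 protein-coding genes between them, and each window holds a TATA box match, from base 32 to 27 before the start in Il1a and from base 31 to 26 in Il1b. Neither Il1rn window shown has one. The Il18 window, not printed, also holds the TATA box letters, from base 175 to 170 before its start. An AP-1 match lies from base 12 to 6 before the Il1a start and from base 141 to 135 before the first Il1rn start, and none overlaps a TATA box match. Searched on both strands, the TATA box letters occur in 12.4% and the AP-1 letters in 6.75% of 32851 RefSeq promoter windows of this length. The NF-kB motif, found in 7.25% of windows, had no match in the windows printed; among the 14 windows of the 10 genes it matched 1 of Nlrp3 and both of Casp4. The Casp4 windows (chr9:5308599-5308848 and chr9:5308610-5308859) overlap over most of their length and hold the same 3 matches. These lie from base 93 to 84, 92 to 83 and 39 to 30 before the first start, and the first pair overlap. The C/EBP motif (TTNNGNAA), found in 36.8%, matched windows of Il1a, Il1b, Il1rn, Il18bp, Nlrp3 and Casp4. A match is a stretch of letters and not a measured binding site, and a missing match says only that these letters are not in this window.

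Each array gave 1 MAS 5.0 signal per probe set, a linear intensity scaled so that the trimmed mean is 500 on every array. Of the 16 probe sets 14, covering all 10 genes, had a mean signal over the 4 arrays above the 40th percentile (69.6) and were tested. The distributions were not alike: the median signal was 155.4 on LPS plus immune complexes replicate 1 and 68.2 to 88.3 on the other arrays, so dim probe sets read higher on that array. Bright probe sets leaned the other way, since the 797 with a mean signal of at least 10000, a bound chosen after the data had been seen, had a median log2 fold change of -0.20 for LPS plus immune complexes against LPS, and -0.01 after quantile normalization. Macrophage markers were bright, with all 9 of the listed genes on the array tested and a summed signal of 153082.9 and 190341.2 with LPS and of 133929.8 and 154182.3 with immune complexes. Neutrophil markers, listed because neutrophils also make much of this family, were dim: 5 of 10 were tested, Elane, Ltf, Cxcr2, Prtn3 and S100a9 lay below the filter, and the summed signal was 1120.3 and 1217.4 on the LPS arrays against 1878.7 and 1693 with immune complexes. The brightest of the list was S100a8, at 540.8 and 504.7 on the LPS arrays against 871.3 and 1137.6 with immune complexes. Of the 5 tested markers it alone read higher in all 4 pairings of an LPS array with an immune complexes array. Mpo read lower in all 4, at 95.2 and 108.2 with LPS against 65.7 and 79.9. The log2 fold changes of the 5 were above 0 for 3 and below 0 for 2. Below the filter, Elane read higher in all 4 pairings, at 16.3 and 19.9 against 127.7 and 85.2. The share of the neutrophil signal in the results below was not tested. Markers of dendritic cells (4 of 6 tested), T or NK cells (1 of 6), B cells (3 of 4), mast cells or basophils (2 of 6) and fibroblasts (4 of 6) summed to 883, 618.1, 544.8, 613.8 and 938.2 on LPS plus immune complexes replicate 1, the highest array for each list, and to at most 415.3, 271.5, 394.2, 366.9 and 346.8 on the other 3. In bulk samples fewer cells of a type and less RNA per cell cannot be told apart.

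Both interleukin-1 cytokine genes read lower when immune complexes were added, and the receptor antagonist gene read higher, but none of these differences passed the limma test over all probe sets, fitted without a replicate block. In limma, 0 of the 14 tested probe sets had a Benjamini-Hochberg adjusted p under 0.05, against 0.0518% of all 27022 probe sets tested. At an unadjusted limma p under 0.05 there were 3 of 14 (Il1a, Il1b and an Il1rn probe set), against 2.81% of all. The groups did not overlap in 4 of 14, against 25.5% of all, a share close to that of the members. None of the 14 was at least 2-fold apart in all 4 pairings of an LPS array with an immune complexes array, against 0.94% of all. The median log2 fold change over the 10 genes, each by its brightest tested probe set, was -0.30, with 8 below 0 and 2 above, and over the 12891 tested genes it was 0.05, with 45.9% below 0. These shares describe the list, whose members were chosen with earlier results known.

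**Figure D1:**
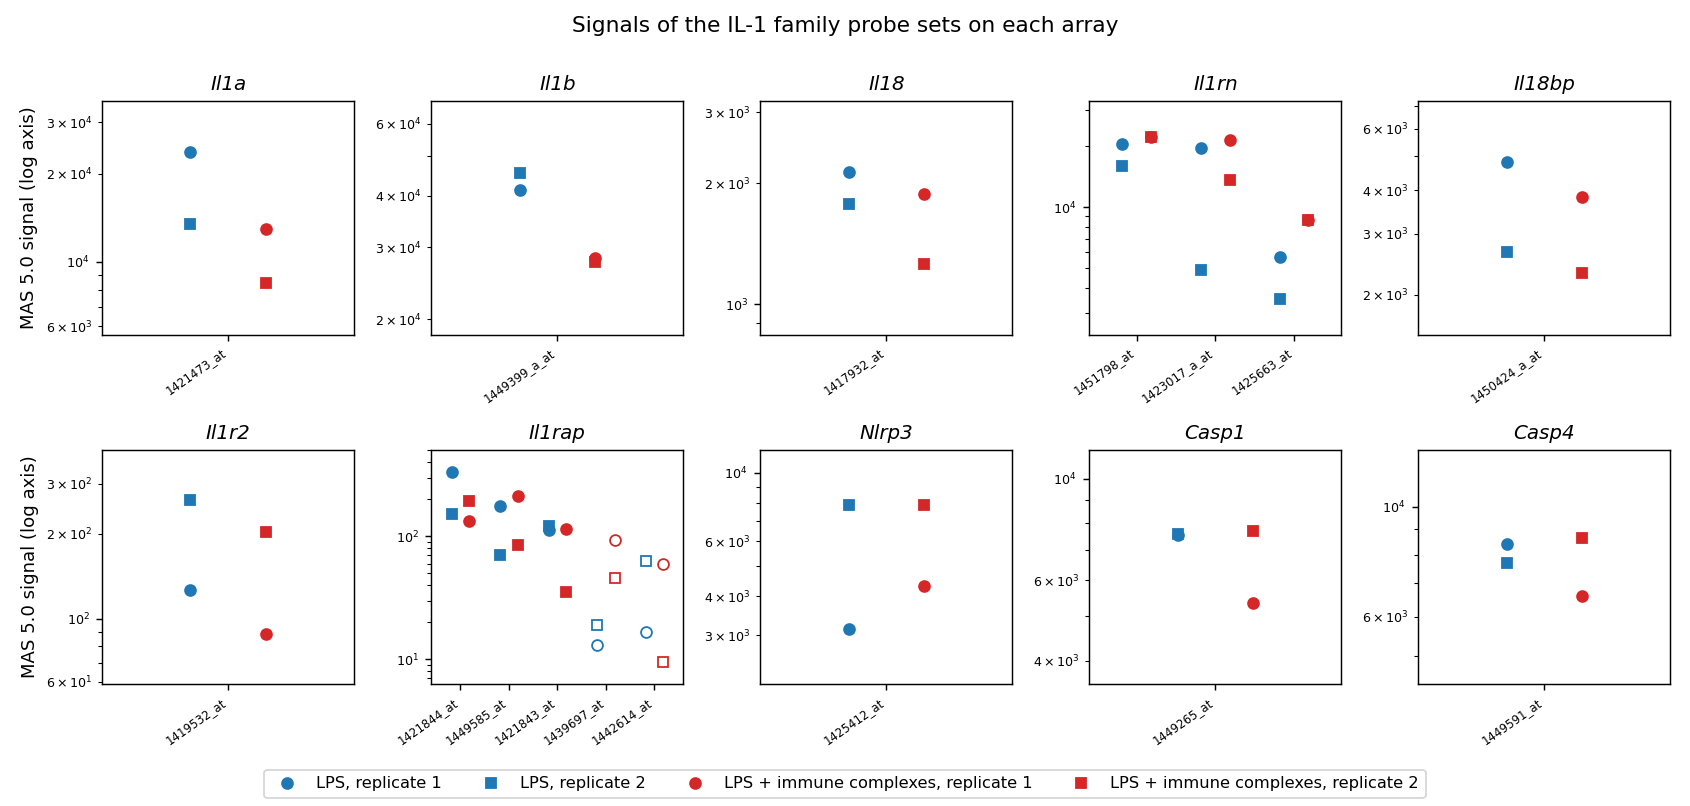
MAS 5.0 signal (log axis) of the 16 probe sets on each of the 4 arrays, with LPS in blue and LPS plus immune complexes in red, circles for replicate 1, squares for replicate 2 and open symbols for probe sets below the filter. Both red points lie under both blue points for Il1a and Il1b, and over them for Il1rn probe sets 1451798_at and 1425663_at.

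Il1b, the main secreted interleukin-1 of stimulated macrophages, had signals of 41426.2 and 45467.9 with LPS and of 28266.6 and 27507.4 with LPS plus immune complexes. Both arrays with immune complexes read below both LPS arrays, and the arrays within each group differed by only 1.1-fold and 1.03-fold. The mean signal was 43447.1 ± 2857.9 (SD, n = 2) with LPS and 27887 ± 536.8 (SD, n = 2) with immune complexes. This is a log2 fold change of -0.64 ± 0.21 (SE), or 1.56-fold lower, with a 95% interval of -1.09 to -0.18 that is not adjusted for the number of probe sets, and a limma adjusted p of 0.986. It was -0.44 after quantile normalization and -0.83 after median centring, which moved the median of all tested genes from 0.05 to -0.15, so Il1b stayed below that median under both scalings. The Il1b probe set ranked between 2 and 98 by brightness among the 45037 on each array. The highest signals were 46354.9 and 53583 on the LPS arrays, close to the Il1b readings there. They were 38166.6 and 42477.9 with immune complexes, further above the Il1b readings. Whether the scanner was saturated at the Il1b signals was not tested, since the table holds no flags.

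Il1a, whose product is active as a precursor and is released by dying cells, had signals of 23649.7 and 13428.9 with LPS and of 12976.2 and 8436.5 with immune complexes. Both arrays with immune complexes were again the lower, but the lowest LPS array exceeded the highest of them by only 1.03-fold, and the LPS arrays themselves differed by 1.76-fold. Within replicate 1 the LPS array was 1.82-fold the higher and within replicate 2 it was 1.59-fold. The log2 fold change was -0.77 ± 0.32 (SE), with a 95% interval of -1.47 to -0.06 and a limma adjusted p of 1. It was -0.36 without LPS replicate 1 and -1.17 without LPS replicate 2, so its size rested on which LPS array was kept. The value was -1.08 without LPS plus immune complexes replicate 1 and -0.46 without replicate 2 of that group, both below 0. Of 12891 tested genes, Il1a was at percentile 86.7 and Il1b at percentile 81.1 by absolute log2 fold change, so many genes differed by more.

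Il18, which macrophages hold as a precursor without stimulation, had signals of 2134.6 and 1777 with LPS and of 1878.2 and 1261.2 with immune complexes. The groups overlapped, since the first array with immune complexes read above the second LPS array. Its log2 fold change was -0.33 ± 0.37 (SE), with a 95% interval of -1.13 to 0.47, which takes in a difference as large as that of Il1b and none.

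Il1rn, the receptor antagonist gene, had 3 probe sets, and all 3 had a mean that was higher with immune complexes. The brightest, 1451798_at, read 20379.7 and 15877.8 on the LPS arrays against 22017 and 22161.5 with immune complexes, for a log2 fold change of 0.30 ± 0.24 (SE). Its 95% interval was -0.23 to 0.82, and it lay at percentile 51.5 of the tested genes by absolute log2 fold change. This value was 0.47 after quantile normalization and 0.1 after median centring. The dimmest, 1425663_at, read 5667.1 and 3545.9 on the LPS arrays against 8605.7 and 8643.9 with immune complexes. In both of these the groups did not overlap, and the 2 arrays with immune complexes differed by at most 1.01-fold. The log2 fold change of 1425663_at was 0.94 ± 0.31 (SE), 1.92-fold, with a 95% interval of 0.25 to 1.62 and a limma adjusted p of 1. The third probe set, 1423017_a_at, read 19597.2 and 4889.1 on the LPS arrays against 21334.9 and 13671.7 with immune complexes, so the LPS arrays differed by 4.01-fold and the groups overlapped. Its log2 fold change of 0.80 ± 0.50 (SE) became -0.20 without LPS replicate 2 and 1.80 without LPS replicate 1, with 1 array left to stand for LPS in each case. The 3 probe sets thus gave the same sign over all 4 arrays and sizes from 1.23-fold to 1.92-fold. The annotation lists the same source sequence for 1451798_at and 1425663_at and another for 1423017_a_at. Which Il1rn transcripts each detects was not determined here.

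**Figure D2:**
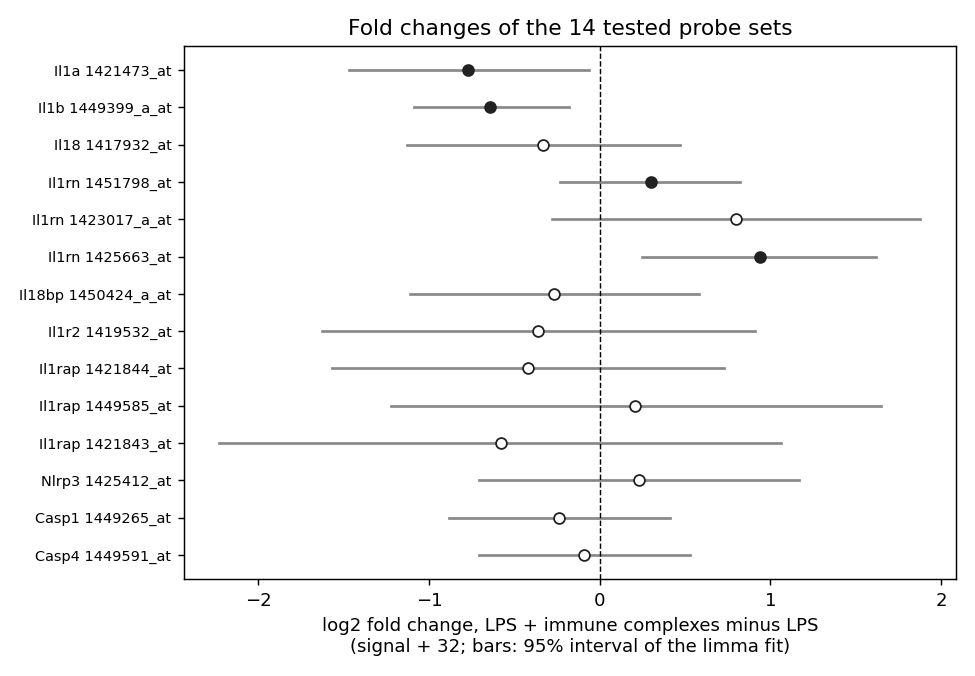
Log2 fold change (LPS plus immune complexes minus LPS, on signal + 32) of the 14 tested probe sets, with bars for the 95% interval of the limma fit and filled points where the groups did not overlap. The intervals of Il1a, Il1b and Il1rn probe set 1425663_at do not include 0, before any adjustment for the 27022 probe sets tested, and the other 11 do.

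Within an array, a difference of log2 signals cancels a scaling factor common to the array, but not a lean that depends on brightness. The log2 signal of Il1rn (by its brightest probe set) minus that of Il1b was higher with immune complexes in all 4 array pairs. The difference between arrays was 0.66 for replicate 1, 1.20 for replicate 2, and 1.16 and 0.71 for the crossed pairs, a change of 0.93 in the means. For Il1rn minus Il1a the 4 pairs gave 0.52 to 1.60, with a change of 1.06 in the means. The signs of both balances were fixed by the readings above, with Il1rn higher and Il1b and Il1a lower in all 4 pairs. They are therefore no separate support. Il1b minus Il1a lay on both sides of 0, from -0.64 to 0.89, so the cytokine genes did not differ from each other in a steady direction. These balances were chosen with the earlier results known and carry no test, and 2 arrays against 2 could give no two-sided exact permutation p below 0.333.

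Il18bp, the soluble binder of interleukin-18 and a target of interferon-gamma, had signals of 4806.6 and 2660.9 with LPS and of 3819.3 and 2308.4 with immune complexes. Replicate 1 was the higher array in both groups, by 1.81-fold and 1.65-fold, more than the 1.26-fold and 1.15-fold by which LPS exceeded immune complexes within each replicate number. Its log2 fold change was -0.27 ± 0.39 (SE), and it was 0.16 without LPS replicate 1 and 0.09 without LPS plus immune complexes replicate 2. The log2 signal of Il18 minus that of Il18bp differed by -0.44 to 0.30 over the array pairs. No direction can be read for the interleukin-18 side from these arrays.

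The receptor chains were dim. Il1r2, the decoy receptor, had signals of 126.8 and 262.2 with LPS and of 88.5 and 202.4 with immune complexes, for a log2 fold change of -0.36 ± 0.58 (SE). The spread within a group, 2.07-fold and 2.29-fold, was wider than the difference, and the sign turned without LPS plus immune complexes replicate 1 (0.12) or without LPS replicate 2 (0.08).

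Il1rap, the accessory chain shared by several receptors of the family, had 5 probe sets that did not move together. The brightest, 1421844_at, read 333.9 and 152.5 on the LPS arrays against 134.4 and 195.1 with immune complexes, lower in replicate 1 and higher in replicate 2. Probe set 1449585_at read 175.9 and 70.3 on the LPS arrays against 212.7 and 85 with immune complexes, and 1421843_at read 112.9 and 120.7 against 114.2 and 35.6. Their log2 fold changes were -0.42 ± 0.53, 0.21 ± 0.66 and -0.58 ± 0.75 (SE), and the sign of 1421844_at turned without LPS replicate 1 (0.08). The other two lay below the filter and were not tested. Of these, 1439697_at read 13.2 and 19.1 on the LPS arrays against 92.8 and 45.9 with immune complexes, highest on the array whose dim probe sets were raised, and 1442614_at read 16.8 and 63.3 against 59.9 and 9.5. The part of that array's raised low signals in these readings was not tested.

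Nlrp3, the inflammasome sensor that LPS induces, had signals of 3136.9 and 7855.3 with LPS and of 4322.5 and 7856.7 with immune complexes. Replicate 2 was the higher array in both groups, and within replicate 2 the 2 readings were nearly equal. The log2 fold change was 0.23 ± 0.43 (SE), and it ran from -0.43 without LPS replicate 1 to 0.89 without LPS replicate 2, with -0.20 without LPS plus immune complexes replicate 2 and 0.66 without replicate 1 of that group.

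Casp1, the protease that cuts the interleukin-1 beta and interleukin-18 precursors, had signals of 7533.7 and 7571.8 with LPS and of 5335 and 7700.7 with immune complexes. Only the first array with immune complexes stood apart, and without it the log2 fold change of -0.24 ± 0.30 (SE) became 0.03. Casp4, its neighbour on chromosome 9 with 0 protein-coding genes between them, read 8409.3 and 7688.6 on the LPS arrays against 6586.2 and 8654.8 with immune complexes. Its log2 fold change was -0.09 ± 0.28 (SE), with a 95% interval of -0.71 to 0.53, the smallest of the 10 genes by absolute value, and it was 0.11 without LPS plus immune complexes replicate 1 and 0.04 after quantile normalization. Within an array the log2 signal of Casp1 minus that of Casp4 differed by -0.28 to -0.01 over the 4 array pairs.

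**Figure D3:**
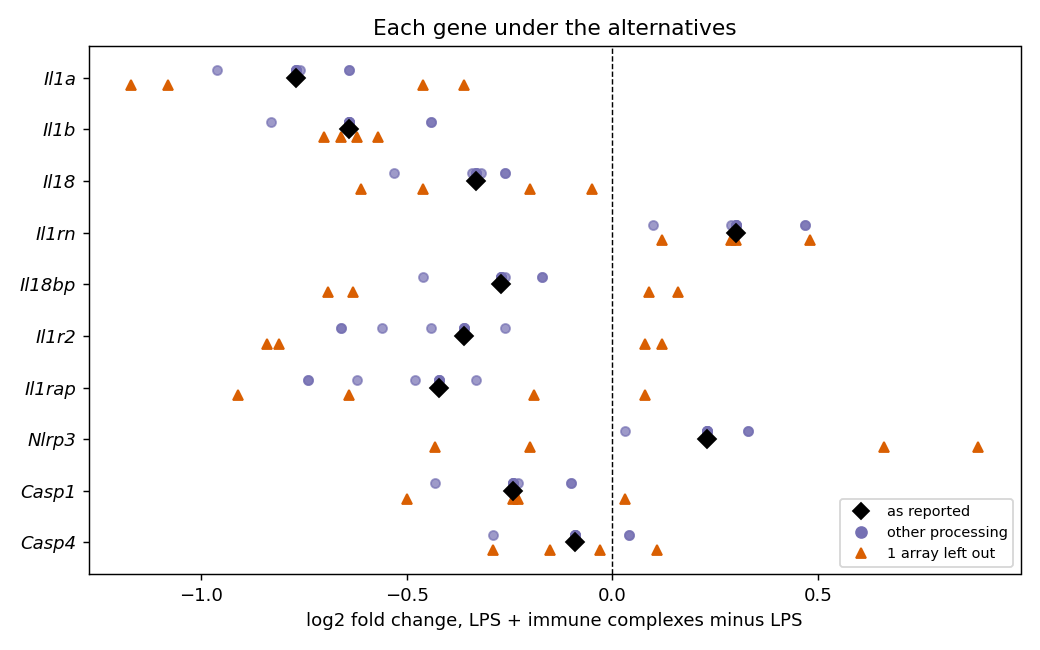
Log2 fold change (LPS plus immune complexes minus LPS) of the brightest tested probe set of each of the 10 genes, as reported (diamonds), under other processing (circles) and with 1 array left out (triangles). Il1a, Il1b and Il18 stay below 0 and Il1rn above 0 throughout, while each of the other 6 genes lies on both sides of 0.

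The wider pathway was described with 52 genes in 4 lists, of which 40 were on the array by a probe set of their own and 36 were tested. In limma 0 of the 36 passed, against 0.0621% of the 12891 tested genes, and 4 had an unadjusted p under 0.05, against 3.13%. Both immune complexes arrays read above both LPS arrays for 5 of the 36 and below them for 8, against 13.2% and 13.1% of all tested genes, and the median log2 fold change was -0.09.

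Among the other ligands, 2 of 6 were tested. Il33, an alarmin of the family that is released from damaged cells, read 362 and 324.5 on the LPS arrays against 704.8 and 1221.3 with immune complexes. The groups did not overlap, and the log2 fold change was 1.36 ± 0.42 (SE), 2.56-fold, with a 95% interval of 0.43 to 2.28 and a limma adjusted p of 0.863. Of the other receptors, 4 of 8 were tested. Il1rl2, the receptor for interleukin-36, and Il18rap, a chain of the interleukin-18 receptor, were above LPS in all 4 pairs at low signals. Il1rl2 read 46 and 11.9 on the LPS arrays against 225.7 and 54.8 with immune complexes, and Il18rap read 98.7 and 92.1 against 306.6 and 140.4. In both the first array with immune complexes, whose dim probe sets were raised, was the highest, and the log2 fold changes were 1.35 ± 1.0 and 0.92 ± 0.58 (SE).

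Receptor-proximal signalling genes had 10 of 13 tested members below 0, against 45.9% of all tested genes. Their median log2 fold change was -0.13, against 0.05 over all tested genes. The part of the lean of bright probe sets in this count was not tested. Myd88, the adaptor shared by interleukin-1 and Toll-like receptors, read 8031.5 and 9786.4 on the LPS arrays against 3861.4 and 7176 with immune complexes, for a log2 fold change of -0.75 ± 0.34 (SE) that was -0.30 without LPS plus immune complexes replicate 1. Tab2, an adaptor of the kinase TAK1, read 9882.4 and 11977 against 5764 and 9528.6, and its log2 fold change of -0.55 ± 0.31 (SE) was -0.19 without the same array. Tollip, which binds interleukin-1 receptor complexes and dampens their signalling, went the other way. It read 1452.8 and 2422.1 on the LPS arrays against 3601.9 and 3966.3 with immune complexes, above LPS in all 4 pairs, with a log2 fold change of 1.0 ± 0.36 (SE), a 95% interval of 0.22 to 1.78 and a limma adjusted p of 1.

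Of the inflammasome genes outside the 10, 17 of 22 were tested, with 8 above 0, 9 below 0 and a median log2 fold change of -0.09. Txnip, a thioredoxin-binding protein linked to NLRP3 activation, read 922.4 and 1343 on the LPS arrays against 435.1 and 645.6 with immune complexes. The LPS arrays were 2.12-fold and 2.08-fold the higher within replicates 1 and 2, and the log2 fold change was -1.03 ± 0.41 (SE) with a limma adjusted p of 1. Pycard, the adaptor ASC that joins NLRP3 to caspase-1, read 3561.8 and 3747.2 on the LPS arrays against 1847.5 and 2977.9 with immune complexes, for a log2 fold change of -0.63 ± 0.35 (SE) that was -0.29 without the first array with immune complexes. Panx1, a membrane channel for ATP, read 244.8 and 262.1 against 412.5 and 301.7, a log2 fold change of 0.43 ± 0.43 (SE).

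**Figure D4:**
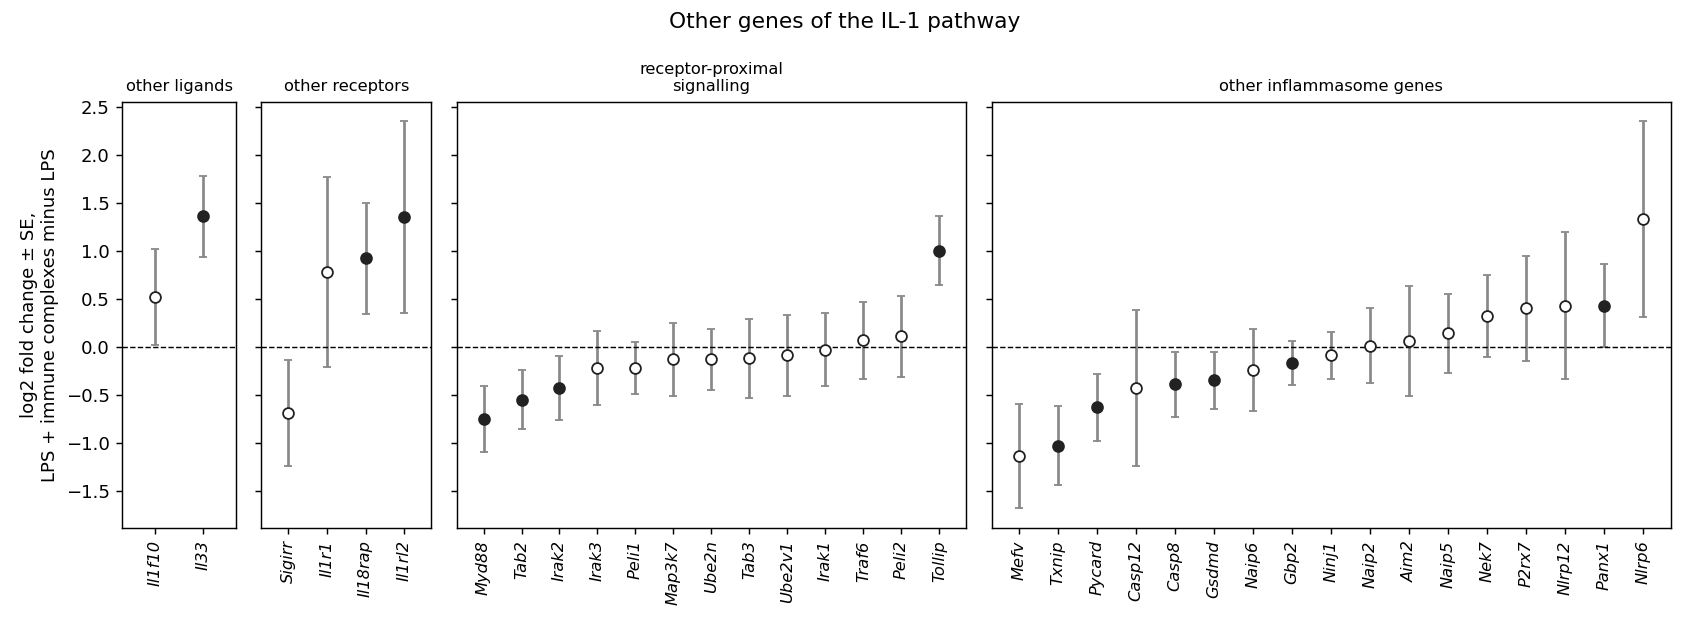
Log2 fold change ± SE (LPS plus immune complexes minus LPS) of the 36 tested genes of the 4 pathway lists, with filled points where the groups did not overlap. Il33 and Tollip lie above 0 and Txnip, Myd88 and Pycard below 0 by more than their SE. Other genes do so too, among them Il1rl2, Il18rap, Tab2 and Mefv. Mefv had the lowest value, -1.14 ± 0.54, with groups that overlapped. None of the 36 passed the limma test.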

How the data were processed

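Total RNA from 4 samples was labelled and hybridised to a mouse Affymetrix array. Per the submitters' processing notes, MAS 5.0 was used, and the deposited table gives the authors' linear intensities, 1 for each probe set on each array. The deposited table holds no detection or saturation calls, and no arrays were pooled in the analysis. Up to 74 identical values were shared by any pair of arrays.

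Sample titles gave the groups and replicate numbers. The analysis used log2(signal + 32), a scale on which dim probe sets show too small a difference. Control probe sets (64) and those under the 40th percentile of mean signal were left out, and the remaining 27022 were compared between the groups by lmFit and eBayes of limma 3.58.1 under R 4.3.3. The moderated test was two-sided, used a variance trend and had no block, with Benjamini-Hochberg adjustment over all of them. A call is an adjusted p under 0.05. Fold changes are differences of mean log2 values.

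Gene names came from GEO's platform annotation, which assigns 1 gene to 34945 probe sets, several to 932 and none to 9160. Of the first, 34741 matched by gene ID RefSeq's table of GRCm38.p6. The annotation of the array states no genome build, so only the printed promoters carry coordinates. Every probe set of the 10 genes was reported, and from each pathway list up to 2 genes with the largest differences on each side among those with groups that did not overlap. The members, lists and marker lists were chosen with earlier results of these data known.

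The fit of LPS plus immune complexes against LPS was tested on simulated data (10 sets, 27022 probe sets, 200 of them changed). It called 0.299% at a log2 change of 1, 9.1% at 2 and 32.7% at 3, with 0 wrong signs. Alternatives were quantile normalization, median centring, pseudocounts of 1 and 100, no filter or the 60th percentile, no variance trend, the replicate number as a block, with and without quantile normalization, each array left out, adjusted p under 0.1, 1.5-fold, and probe sets averaged per gene.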

Additional observations from a re-analysis of the deposited data

How the results depend on the processing

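Of 180 recomputed values of the 14 tested probe sets, 154 kept their sign and their side of the threshold, 10 passed it with the same sign and 16, in 8 probe sets, had the opposite sign. Il1a, Il1b and Il18 stayed below 0 and the Il1rn probe sets 1451798_at and 1425663_at above 0 in every alternative. With quantile normalization, alone or with the replicate block, Il1rap 1449585_at was at -0.03 and Casp4 at 0.04. Leaving out 1 array in turn gave -0.32 to 0.75 for Il1rap 1449585_at, -0.91 to 0.08 for Il1rap 1421844_at, -0.29 to 0.11 for Casp4, -0.50 to 0.03 for Casp1, -0.69 to 0.16 for Il18bp, -0.43 to 0.89 for Nlrp3, -0.84 to 0.12 for Il1r2 and -0.20 to 1.80 for Il1rn 1423017_a_at. A lone array in a group is taken to vary as the arrays of the other group did.

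The titles number the replicates without saying that a number marks a shared culture or day, so the numbers were not taken as pairs. The deviations from the group means of same-numbered arrays had a positive correlation, 0.38 across probe sets, so same-numbered arrays tended to deviate in the same direction. With 2 pairs, a shared effect of the replicate number was not tested, and the calls depend on whether the numbers are taken as pairs. A limma fit with the replicate block called 4 of the 14 probe sets (Il1a, adjusted p = 0.000164, Il1b, 0.000155, and Il1rn 1423017_a_at, 8.33e-05, and 1425663_at, 7e-05), which is 2 genes by the brightest probe set, 5 pathway genes (Il33, Tollip, Myd88 and Txnip among them) and 671 probe sets in all. With quantile normalization and the block it called 5 probe sets, these 4 and Il1rn 1451798_at (adjusted p = 0.000133), or 3 genes, 6 pathway genes and 903 in all. Both blocked fits had infinite prior degrees of freedom, so probe sets of like signal shared 1 variance. The same held for the fits without LPS replicate 1 and without LPS replicate 2. Leaving out 1 array gave 0 to 1 of the 14 called, 0 to 1 pathway genes, 0 to 2 of the 14 at least 2-fold apart and 0 to 109 probe sets called in all. At 1.5-fold 1 probe set was apart in all 4 pairs, Il1rn 1425663_at.

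Against 14 probe sets called in all, the count was 0 with quantile normalization, 47 with median centring, 23 and 6 with pseudocounts of 1 and 100, 89 without a filter, 4 with the 60th percentile, 0 without the variance trend and 37 at adjusted p under 0.1, and none of these called any of the 14 IL-1 family probe sets. The cause was not tested. The median log2 fold change of the 10 genes ran from -0.50 to -0.08.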
